A study of Mus musculus with 6 samples.

Results

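The Tead transcription factors and their cofactors were examined as a set of 9 genes of 23057 with a RefSeq transcript: Tead1, Tead2, Tead3 and Tead4, the vestigial-like genes Vgll2, Vgll3 and Vgll4, and the coactivator genes Yap1 and Wwtr1 (Taz). The members were set by name. Sox6 peaks in or within 20 kb of each gene, and Sox6, RNA polymerase II (Pol II) and input reads over each gene and at its start, were read from ChIP-seq of cultured mouse myotubes. Myoblasts were taken from limb muscle of wild type C57BL/6 fetuses at E18.5, used at passage 17, and kept for 48 h in DMEM with 2% horse serum to form myotubes. Chromatin was immunoprecipitated with a Sox6 antibody (Sox6, 2 libraries) or with an antibody to the Pol II C-terminal repeat (Pol II, 2 libraries), and DNA without immunoprecipitation was sequenced as Input (2 libraries). All 3 groups came from the same kind of cells with no mutant or treatment, so each comparison was of a ChIP with input. The cells were grown from myoblasts in a dish, which limits them as a model of muscle in the fetus.

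Tead proteins bind DNA through their TEA domain, at a short element known in muscle genes as the MCAT element, and activate little on their own. They act with cofactors that lack a DNA-binding domain: Yap1 and Wwtr1, which the kinases of the Hippo pathway keep out of the nucleus by phosphorylation, and the Vgll proteins, which contact Tead through their own Tondu motif. Sox6 is an HMG-box factor known in muscle for suppression of slow fiber genes.

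The Sox6 libraries held 2985437 and 1468604 reads, the Pol II libraries 1538757 and 2762155, and the inputs 21973495 and 24249850. Input replicate 1 had reads of 36 bp and the others of 39 bp. The labelled cell type was checked by Pol II at marker genes. All 10 myotube marker genes had more Pol II than input over the gene body, and their summed levels were 362 and 394 RPKM (reads per kb of gene and 1000000 library reads) in the Pol II libraries against 7.17 in each input. None of 8 fibroblast markers was higher and 6 were lower, with sums of 1.65 and 1.81 RPKM against 3.88 and 3.63 in input, and Lum and Tcf21 had 0 Pol II reads in replicate 1. Of the other lists, 2 of 4 progenitor or cycling markers, 1 of 4 cartilage markers and 1 of 3 neural markers were higher. Their log2 ratios to input ran up to 2.38, 1.24 and 1.19. In each of these lists 2 markers were lower. No endothelial or blood marker was higher, and 3 of 3 endothelial and 1 of 2 tested blood markers were lower. Over all genes tested, 38.9% were higher and 24.4% lower. Hbb-b1 had 0 Pol II reads in both libraries. Of the 3 blood markers, 1 had under 10 reads over the libraries compared and was not tested. The part of cells other than myotubes in the values below was not tested.

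Sox6 peaks common to both replicates lay in 3 of the 9 genes, Tead1, Tead4 and Vgll4, and all 5 of them were intronic. Over all genes, 4.33% had a common peak in or within 20 kb, and 11.2% did among genes at least as long as the median member (72598 bp). The members run from 5970 bp for Vgll2, 17867 bp for Tead2, 19131 bp for Tead3 and 47425 bp for Vgll3 to 120180 bp for Wwtr1 and 227486 bp for Tead1, and each of the 3 genes with a common peak was at or above their median length. The 5 sequences are given with 100 bp to each side of the peak centre, on the strand of the gene, because they are the DNA that both Sox6 experiments picked out in these genes. Capitals mark a Sox motif (ACAAAG or ACAATG) or a Tead/MCAT motif (GGAATG) found on either strand. Coordinates are of NCBI Build 37 (mm9).
Tead1 peak 1, intron 9, chr7:120027571-120027771, plus strand: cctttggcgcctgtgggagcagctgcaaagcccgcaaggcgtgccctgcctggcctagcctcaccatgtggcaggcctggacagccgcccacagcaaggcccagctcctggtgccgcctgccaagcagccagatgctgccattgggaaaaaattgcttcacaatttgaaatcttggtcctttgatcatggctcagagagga
Tead1 peak 2, intron 9, chr7:120029171-120029371, plus strand: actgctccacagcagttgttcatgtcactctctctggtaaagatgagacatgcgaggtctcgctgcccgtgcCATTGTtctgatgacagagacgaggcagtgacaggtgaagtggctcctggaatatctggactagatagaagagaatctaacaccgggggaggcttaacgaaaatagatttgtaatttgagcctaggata
Tead4 peak 1, intron 4, chr6:128200671-128200871, minus strand: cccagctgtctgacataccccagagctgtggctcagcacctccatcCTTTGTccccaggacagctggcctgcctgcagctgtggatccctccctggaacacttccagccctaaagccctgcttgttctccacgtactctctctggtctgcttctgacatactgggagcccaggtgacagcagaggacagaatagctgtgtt
Tead4 peak 2, intron 9, chr6:128186731-128186931, minus strand: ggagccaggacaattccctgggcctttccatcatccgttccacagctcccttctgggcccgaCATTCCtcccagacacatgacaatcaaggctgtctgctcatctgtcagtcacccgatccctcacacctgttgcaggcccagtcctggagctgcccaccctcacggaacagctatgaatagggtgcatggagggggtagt
Vgll4 peak, intron 3, chr6:114839061-114839261, minus strand: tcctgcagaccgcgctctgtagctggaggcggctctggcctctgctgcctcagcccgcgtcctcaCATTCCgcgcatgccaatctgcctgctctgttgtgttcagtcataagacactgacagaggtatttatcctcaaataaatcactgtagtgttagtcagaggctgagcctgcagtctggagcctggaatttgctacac

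The Sox motif was found in 2 of the 5 sequences, Tead1 peak 2 (ACAATG on the opposite strand, 25 bp before the centre) and Tead4 peak 1 (ACAAAG on the opposite strand, 51 bp before the centre). Among all 1066 common peaks, 58.4% of windows of this size held a Sox motif, against 26.4% of windows 2 kb to either side. The Tead/MCAT motif was found in the other peak of Tead4 and in that of Vgll4, both as GGAATG on the opposite strand, 35 and 32 bp before the centre. It was held by 28.4% of all common peak windows and by 9.85% of the flanking ones. E-boxes (CAGCTG or CAGGTG), the element of the myogenic bHLH factors, were present in 4 of the 5 windows, with 4 matches in Tead4 peak 1, against 66.5% of all common peaks. The further motif searched (CCACA, Runx) was in 4 of the 5 windows, against 68.9%. The motifs were searched on both strands. In Tead4 peak 1 an E-box and a Runx match shared bases. A match describes the letters in the window only.

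Tead1, the broadly expressed member of the factor family, had both of its common peaks near the 3' end of a gene body that spans chr7:119822834-120050319. Peak 1 was listed at chr7:120027642-120027701, 204837 bp from the start, and peak 2 at chr7:120029222-120029321, 206437 bp from it. In windows of 450 bp around the centre, peak 1 held 7 reads in each Sox6 library and 5 and 9 in the inputs, or 2.34 and 4.77 RPM (reads per 1000000 library reads) against 0.228 and 0.371. Peak 2 was the most strongly bound of the 5, with 39 and 26 Sox6 reads, 13.1 and 17.7 RPM, against 0.637 and 0.619 RPM in the inputs. Windows 2 kb to either side of peak 2 held means of 0.167 and 0.681 RPM of Sox6, so in both libraries the Sox6 reads lay at the peak and not around it.

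Tead4, a factor known for expression in differentiating muscle, lies on the minus strand at chr6:128177161-128250831. Its peak 1 (chr6:128200702-128200841, 50060 bp from the start) held 28 and 13 Sox6 reads, 9.38 and 8.85 RPM, and its peak 2 (chr6:128186762-128186901, 64000 bp from the start) 8 and 15 reads, 2.68 and 10.2 RPM. The inputs held 0.683 and 0.371 RPM at peak 1 and 0.273 and 0.825 RPM at peak 2. The Sox6 libraries were close to each other at peak 1 and apart at peak 2, where each still exceeded both inputs.

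Vgll4, a cofactor known to compete with Yap1 for Tead proteins, lies on the minus strand at chr6:114812782-114920012. Its peak (chr6:114839102-114839221, 80851 bp from the start of the longest model) held 20 and 22 Sox6 reads, 6.70 and 14.98 RPM, against 0.592 and 0.784 RPM in the inputs. The peaks were called on these Sox6 reads, so the values describe them. As log2 ratios to input they were 4.57 for Tead1 peak 2, 4.16 for Tead4 peak 1, 3.87 for the Vgll4 peak, 3.52 for Tead1 peak 1 and 3.45 for Tead4 peak 2, beside a median of 3.52 over all common peaks, of which 96.8% were higher than input in this measure. Their percentiles among the 1066 common peaks ran from 46.7 to 89.0, so these peaks were not at the top of the list. The primers used for ChIP-qPCR in Tead1 and Tead4 each lay at 1 place in the genome, within 27 to 68 bp of the centre of one of these peaks, and the intergenic control amplicon (chr14:55921902-55921999) held 0 and 1 Sox6 reads in a window of the same size.

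**Figure D1:**
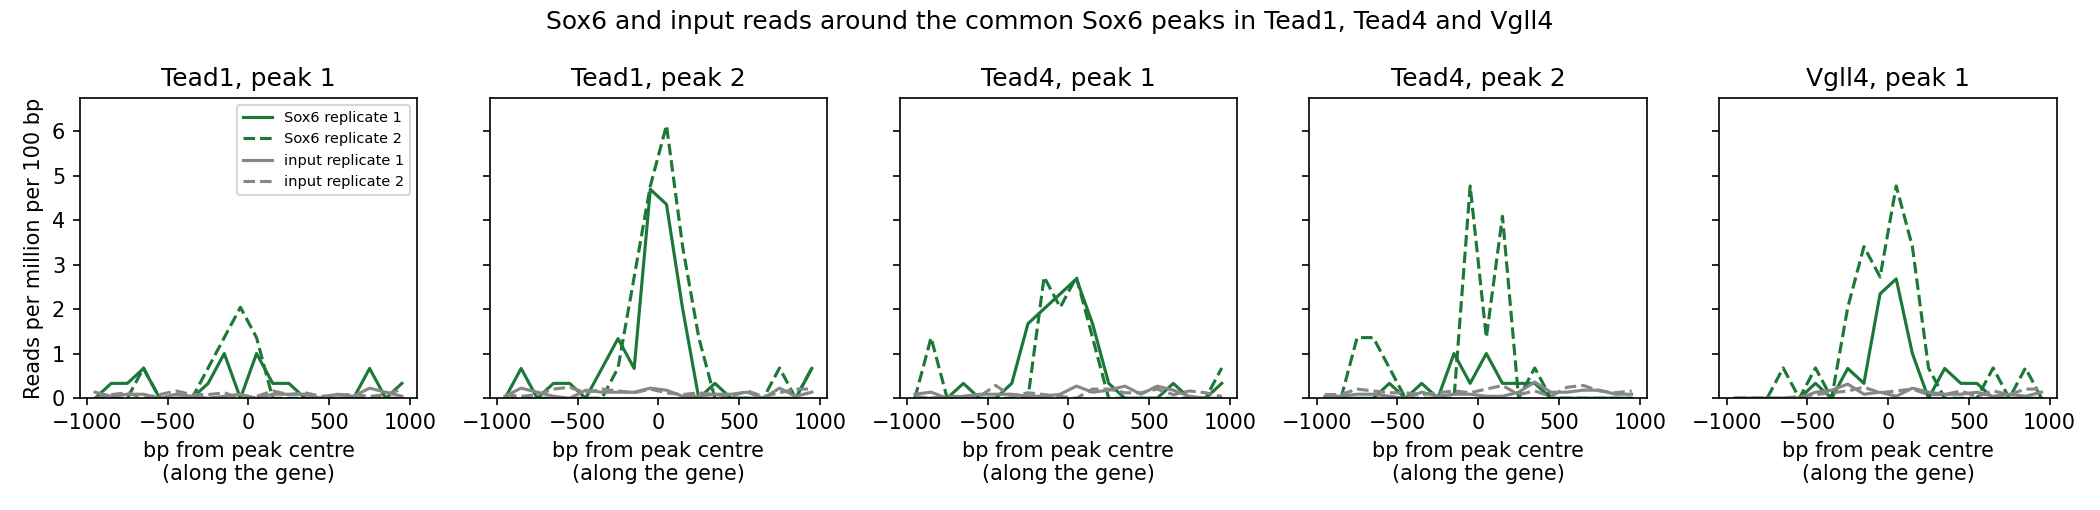
Sox6 (green) and input (grey) RPM in bins of 100 bp, by distance from the centre of each common peak of Tead1, Tead4 and Vgll4, along the strand of the gene. Solid lines are replicate 1 and dashed lines replicate 2. Both Sox6 libraries rise above both inputs in bins near the centre of each peak, most at Tead1 peak 2 (39 and 26 reads in the 450 bp window).

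The lists of single replicates held further peaks near these genes. The replicate 1 list had 9 peaks in or within 20 kb of 4 members (9.64% of all genes had one), and the replicate 2 list had 7, also at 4 members (6.68% of all genes). Peaks in one list only were Tead4 intron 2, Vgll2 (1024 bp past the gene), Vgll4 intron 3 and Vgll4 (1311 bp past the gene) in replicate 1, and Vgll4 intron 3 and Wwtr1 intron 2 in replicate 2. Every peak of each list was tested in the reads of the other replicate, with a two-sided exact binomial test that set that library against the input of the same number, with Benjamini-Hochberg adjustment over the whole list. In that test 66.9% of all replicate 1 peaks and 84.4% of all replicate 2 peaks were higher than input, and 7 of 9 and 6 of 7 near members. These include peaks that both replicates had called, 5 near members in each list, whose outcome the calling had largely fixed. Among peaks of one list only, 50.7% in replicate 1 and 63.2% in replicate 2 were higher, and 2 of 4 and 1 of 2 near members. The replicate 1 list is also the longer one, with a peak near 23.7% of the genes at least 72598 bp long, against 16.6% for replicate 2.

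The 3 list-only peaks that were higher in the other replicate lay at Vgll2, Wwtr1 and Tead4. The Vgll2 peak (chr10:51749272-51749331) held 10 Sox6 reads in replicate 1, where it was called, and 9 in replicate 2 (6.13 RPM, against 0.784 in input replicate 2, adjusted p = 6e-05 by the exact binomial test). The Wwtr1 peak (chr3:57339792-57339851) held 8 reads in replicate 2 and 6 in replicate 1 (adjusted p = 0.0021, exact binomial test), and the adjusted p was 0.084 when each position was counted once. The Tead4 intron 2 peak (chr6:128209492-128209611) held 7 reads in replicate 1 and 4 in replicate 2 (adjusted p = 0.012, exact binomial test). With the deposited interval in place of the 450 bp window, none of these 3 passed. All 3 Vgll4 peaks missed the threshold, with 0 and 2 reads in replicate 2 for those called in replicate 1 and 2 reads in replicate 1 for the other (adjusted p from 0.29 to 1, exact binomial test). The Vgll2 and Wwtr1 sequences are shown because they were the only peaks at these cofactor genes. Capitals mark a Tead/MCAT motif (GGAATG), which lay in the Wwtr1 window 70 bp before the centre, and neither window held a Sox motif.
Vgll2, past the gene, chr10:51749201-51749401, plus strand: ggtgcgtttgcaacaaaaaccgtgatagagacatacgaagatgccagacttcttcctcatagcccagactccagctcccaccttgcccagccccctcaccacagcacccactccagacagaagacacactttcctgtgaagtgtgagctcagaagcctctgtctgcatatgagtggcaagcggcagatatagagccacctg
Wwtr1, intron 2, chr3:57339721-57339921, minus strand: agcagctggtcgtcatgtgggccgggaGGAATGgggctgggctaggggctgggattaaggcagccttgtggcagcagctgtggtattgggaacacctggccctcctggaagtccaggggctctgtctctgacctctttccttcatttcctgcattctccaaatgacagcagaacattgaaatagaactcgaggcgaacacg

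Tead2, Tead3, Vgll3 and Yap1 had no Sox6 peak in or within 20 kb in any of the lists. The nearest common peak was 147248 bp from Yap1 and lay within another gene, Tmem123, with 79 and 33 Sox6 reads. It was 60927 bp from Vgll2, 700171 bp from Tead3, 796851 bp from Wwtr1, 1368732 bp from Tead2 and 10105457 bp from Vgll3.

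All 9 genes had more Pol II than input over the gene body, from the start to the end of the longest model (limma with a trend, adjusted p from 4.9e-09 to 0.00019). Over all 21007 genes tested, 38.9% were higher and 24.4% lower. In these cultures a larger share of cells with Pol II on a gene and more Pol II per cell cannot be told apart. On the log2 scale of RPM with 0.5 reads added to each count, the median ratio of the members was 1.77 and that of all genes 0.17. When library values were shifted to equal medians, the median of all genes moved from 0.17 to -0.28, the counts of all genes from 8181 higher and 5119 lower to 6177 higher and 7452 lower, and the 9 members remained higher.

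Tead4 had the highest Pol II level of the set, with 957 reads in replicate 1 and 1739 in replicate 2, or 8.44 and 8.55 RPKM, against 0.927 and 1.01 RPKM in the inputs. Its log2 ratio to input was 3.14 ± 0.07 (SE, n = 2 against 2), at percentile 97.2 of all genes. As a reference, Actb (β-actin) had 26.4 and 35.8 RPKM, so Tead4 was at 31.9% and 23.9% of it. Among the other factors, Tead1 had 2.08 and 2.11 RPKM, 7.87% and 5.90% of Actb, with a log2 ratio of 1.48 ± 0.06 (SE). Tead2, a gene known from early embryos, had 1.42 and 1.58 RPKM with a log2 ratio of 1.77 ± 0.17 (SE), and Tead3 had 1.12 and 1.65 RPKM with a log2 ratio of 1.44 ± 0.20 (SE). The Pol II level of Tead4 was thus over the others in each library, and those of Tead2 and Tead3 overlapped.

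The Tead3 reads lay unevenly. Of 20 equal bins along the gene, the last held 4.08 and 11.7 RPKM, while the median bin held 0.680 and 1.14. The next gene on that side is Rpl10a, a ribosomal protein gene that runs toward Tead3, ends 642 bp away and had 9.13 and 9.33 RPKM of Pol II. Without the last 1000 bp of Tead3, its levels were 0.968 and 1.12 RPKM against 0.497 and 0.505 in the inputs, and the log2 ratio was 1.07 ± 0.18 (SE, limma, adjusted p = 0.00057). This trimmed value was added after the data were seen.

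Of the cofactor genes, Vgll2, known as a cofactor of Tead in skeletal muscle, had 3.81 and 4.49 RPKM of Pol II on only 35 and 74 reads, with a log2 ratio of 2.42 ± 0.20 (SE). Vgll3 had 3.54 and 3.97 RPKM (2.23 ± 0.11, SE) and Vgll4 3.44 and 3.71 RPKM (1.94 ± 0.08, SE). The ranges of Vgll2 and Vgll3 overlapped, as did those of Vgll3 and Vgll4. Wwtr1 had 2.25 and 2.30 RPKM (1.60 ± 0.07, SE), above its paralog Yap1 at 1.05 and 1.08 RPKM, in both libraries. Another gene, Gm16016, overlaps Wwtr1, and reads in the overlap cannot be assigned to either gene. Over whole gene bodies Yap1 had the lowest level of the set and the smallest log2 ratio, 0.94 ± 0.10 (SE), at percentile 68.9 of all genes, while Tead3 without its last 1000 bp (0.968 and 1.12 RPKM) overlapped it. Vgll1, the member of the family that was not in the set, had 0.106 and 0.0393 RPKM and less Pol II than input (log2 ratio -1.56 ± 0.52, SE, limma, adjusted p = 0.025), a call on 3 and 2 Pol II reads that was lost without either input.

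**Figure D2:**
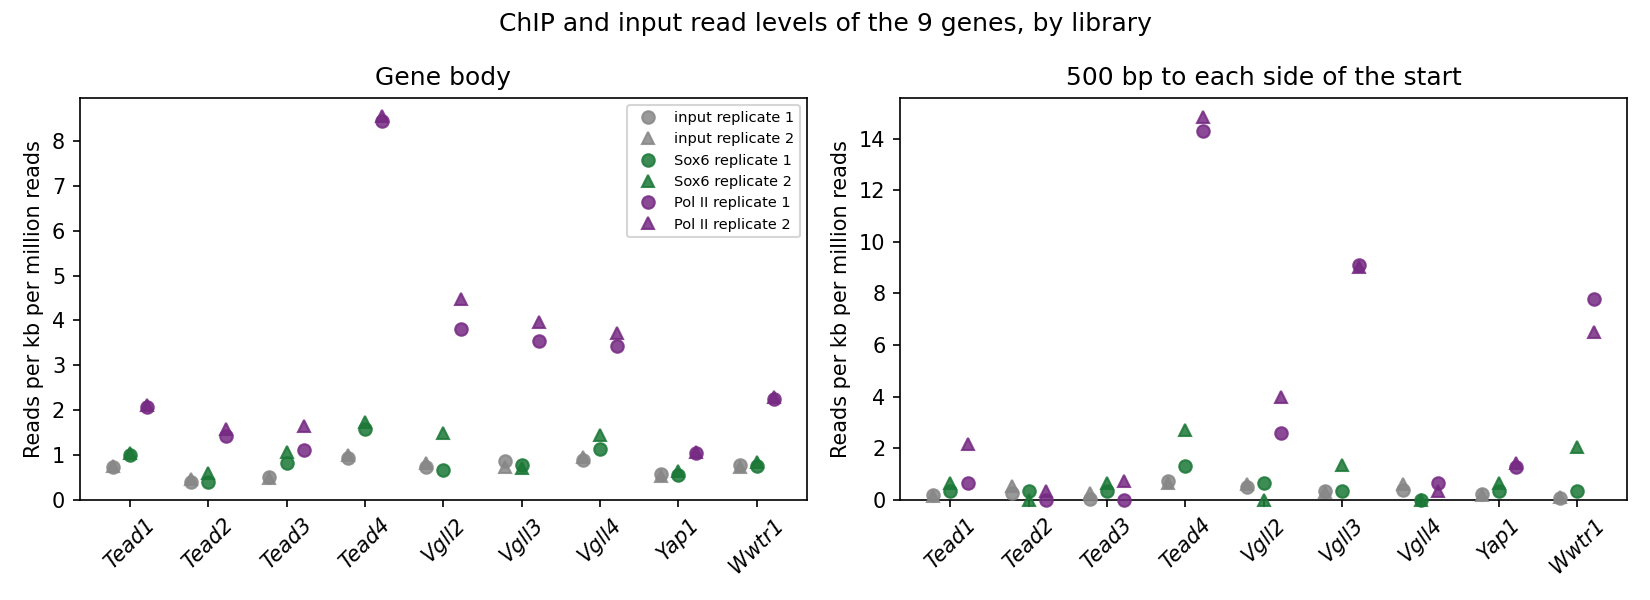
RPKM over the gene body (left) and within 500 bp of the start (right) for each of the 9 genes. Circles are replicate 1 and triangles replicate 2 of input (grey), Sox6 (green) and Pol II (purple). Over the gene body the Pol II points of each gene lie above both of its inputs, from 1.05 RPKM for Yap1 to 8.55 for Tead4.

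At the start of the longest model the log2 ratios of Pol II ran from 0.05 to 5.85, and over the bodies from 0.94 to 3.14. The start ratios rest on fewer reads and have larger SE, and the difference in spread was not tested. In windows of 500 bp to each side, 7 of the 9 were higher than input, as were 47.1% of all 18752 genes tested, while 0.0747% of all genes were lower. Counts in these windows are low. The 0.5 reads added before scaling are more RPM in the ChIP libraries than in the deeper inputs, which raises ratios on few reads. Tead2, with 0 and 0.362 RPKM of Pol II against 0.273 and 0.536 in the inputs, still had a log2 ratio of 0.05. The median log2 ratio of all genes was 1.41 and that of the members 2.77. When library values were shifted to equal medians, the median of all genes moved to -0.19 and the counts of all genes moved from 8839 higher and 14 lower to 3809 higher and 3972 lower. With an equal pseudocount of 0.5 RPM they were 6761 higher and 3090 lower, with a median of 0.65. In that setting the start calls of Tead1 (log2 ratio 1.38, limma, adjusted p = 0.11) and Tead3 (0.25, limma, adjusted p = 0.73) were lost. With equal medians 3 of the 9 members were higher.

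Wwtr1 held 12 and 18 Pol II reads at its start and 2 and 3 input reads, a log2 ratio of 5.85 ± 0.64 (SE), the largest of the set. As levels these were 7.79 and 6.51 RPKM of Pol II against 0.0909 and 0.124 in the inputs. Pol II itself was higher at the start of Tead4, at 14.3 and 14.8 RPKM, where the inputs held 0.727 and 0.659. Vgll3 held 14 and 25 Pol II reads against 8 in each input (4.66 ± 0.44, SE), and Tead4 22 and 41 against 16 in each input (4.37 ± 0.34, SE). These were the 3 members that stayed higher with equal medians. Per kb, Pol II at the start of Wwtr1 was 3.47 and 2.84 times its level past the first 1000 bp, that of Vgll3 2.69 and 2.38 times, and that of Tead4 1.72 and 1.77 times. Vgll2 held 4 and 11 Pol II reads at the start against 11 and 15 in the inputs (2.59 ± 0.51, SE), with 0.946 and 0.926 times its level past the first 1000 bp. Tead1 (1 and 6 Pol II reads), Yap1 (2 and 4) and Tead3 (0 and 2) were called higher on very few reads, with adjusted p of 0.0018, 0.0021 and 0.047 (limma). Without Input replicate 1 or without Input replicate 2, none of those 3 passed. Tead2 (0 and 1 reads) and Vgll4 (1 and 1) were not higher (log2 ratios 0.05 ± 0.91 and 0.47 ± 0.83, SE; limma, adjusted p = 0.98 and 0.72). With 2 reads added both passed, as 15624 of all genes did, and Tead2 passed with windows of 1000 bp to each side (limma, adjusted p = 0.029), as 8905 of 21848 genes did.

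**Figure D3:**
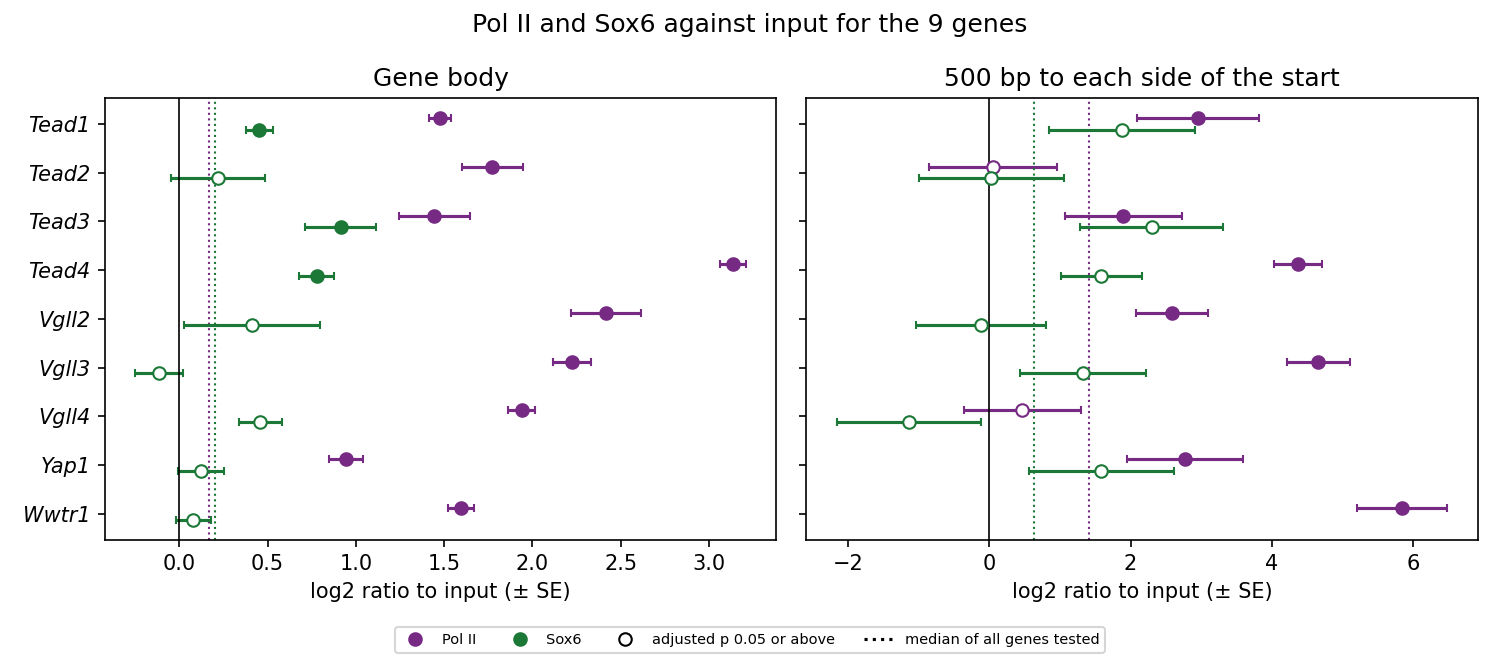
Log2 ratio of Pol II (purple) and Sox6 (green) to input over the gene body (left) and within 500 bp of the start (right), with SE bars from limma. Filled points had an adjusted p under 0.05, open points did not, and dotted lines are medians of all genes tested. Wwtr1 had 9 reads at its start over the Sox6 and input libraries together, under the minimum of 10, and has no Sox6 point there. Pol II over the body runs from 0.94 (Yap1) to 3.14 (Tead4), with all 9 filled.

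Vgll4 had more Pol II than input over its body but not at the start of its longest model, and its other annotated starts were read separately. Windows at all 28 distinct starts of the 9 genes were tested with those of all genes, and 19 were higher than input, as were 38.4% of 38635 tested, of which 0.0647% were lower. Windows of starts under 1000 bp apart share reads. Of the 5 starts of Vgll4, 4 were higher than input. The start 48173 bp into the longest model held 7 and 19 Pol II reads, 4.54 and 6.87 RPKM, against 1.23 and 0.865 RPKM in the inputs. Between the start at 791 bp and this one, 47383 bp held 0.782 and 1.03 RPKM of Pol II against 0.839 and 0.855 in the inputs. From this start to the next, 46715 bp held 5.52 and 5.51 RPKM against 0.986 and 1.06. In both Pol II libraries the level of Vgll4 thus changed near the inner start, and its Sox6 peak lay 80851 bp from the outer one, within the second stretch.

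Tead4, Tead1 and Yap1 had no step of this size at an inner start. Tead4 held 9.99 and 9.34 RPKM in the 25236 bp before its inner start, which was higher than input (29 and 28 reads, log2 ratio 3.84 ± 0.33, SE), and 7.63 and 8.13 RPKM after it. Tead1 had 3 of 4 starts higher and between 1.47 and 2.47 RPKM in each stretch between them. Yap1 had 2 of 4 starts higher and 1.03 and 1.12 RPKM before its last inner start, against 1.04 and 1.07 after it. Without either input, 14 of the 28 starts of the 9 genes were higher in place of 19, and the calls lost were both of Yap1 and 1 each of Tead1, Tead2 and Tead3. Tead2 had 4 of 7 starts higher and Tead3 1 of 3. The Tead3 start called here lies 15390 bp inside the gene and kept its call in 6 of 11 alternatives, and the start of its longest model, on the same reads as above, was not called in this fit (limma, adjusted p = 0.052). In the fit of gene starts, that start kept its call in 4 of 14 alternatives. The end of Tead2 lay 21 bp from Cd37, a gene on the opposite strand with 1.07 and 1.26 RPKM of Pol II. In the bins along the genes, Pol II of Tead4 was over 2 times the input of the same number in all 20 bins in both libraries, that of Wwtr1 in 15 and 20, and that of Yap1 in 10 and 10.

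**Figure D4:**
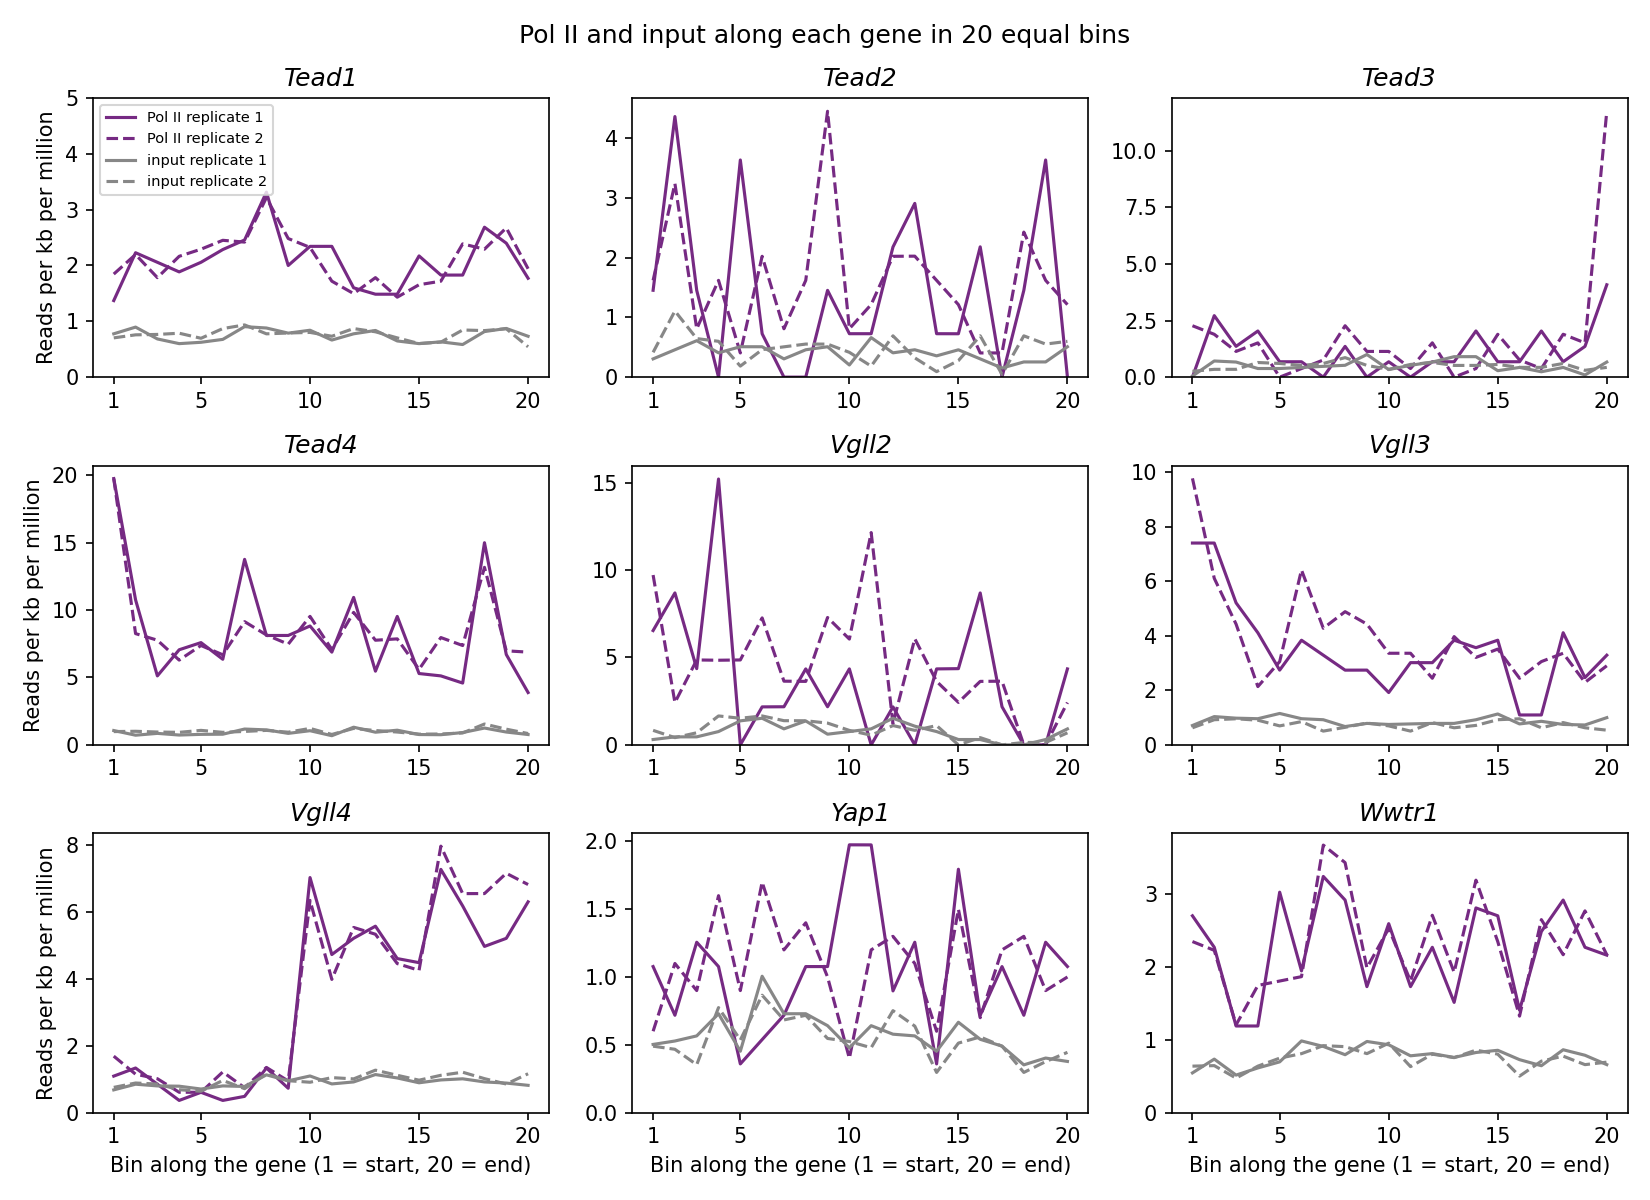
Pol II (purple) and input (grey) in RPKM in 20 equal bins from the start to the end of each gene. Solid lines are replicate 1 and dashed lines replicate 2, and each panel has its own scale. Vgll4 is at most 1.69 RPKM in bins 1 to 9 and at 7.03 and 6.35 RPKM in bin 10, Tead4 is highest in bin 1, Vgll3 in bin 1 or, in replicate 1, equally in bins 1 and 2, and Tead3 is highest in bin 20.

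The deposited Pol II peak lists were read as well. Peaks inside Tead4 numbered 40 in each replicate, those inside Vgll4 18 and 28, those inside Vgll3 3 and 10, those inside Tead1 4 and 5, those inside Wwtr1 1 and 5, and those inside Vgll2 1 and 2. Tead2, Tead3 and Yap1 held none in either list, although their reads over the body were higher than input.

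Over whole gene bodies the log2 ratios of Sox6 to input ran from -0.11 to 0.91 among the members, with a median of 0.41. Of the 9 genes, 3 were higher than input, as were 5.38% of 21005 genes tested, of which 1.63% were lower. The 3 were Tead3 (log2 ratio 0.91 ± 0.20, SE), Tead4 (0.78 ± 0.10) and Tead1 (0.45 ± 0.08, both SE), with adjusted p of 0.034, 0.014 and 0.017 (limma). Tead4 had 1.58 and 1.73 RPKM of Sox6 against 0.927 and 1.01 in the inputs, and Tead1 1.01 and 1.05 against 0.742 and 0.766. The bodies of Tead4, Tead1 and Vgll4 include their common peaks, called on these same reads. Peaks 1 and 2 of Tead4 held 28 and 8 of 348 reads in Sox6 replicate 1, and 13 and 15 of 187 in replicate 2. Those of Tead1 held 7 and 39 of 688, and 7 and 26 of 350. The bodies without their peaks were not tested. In Tead3, which had no peak, the Sox6 levels were 0.823 and 1.07 RPKM against 0.504 and 0.502. Vgll4, with 1.13 and 1.45 RPKM against 0.901 and 0.964, had a log2 ratio of 0.46 ± 0.12 (SE, adjusted p = 0.053, limma). Vgll4 passed with 2 reads added and with no filter, where 2502 and 2306 of all genes were higher. It also passed with each position counted once, with voom weights and with all 6 libraries in 1 fit (limma, adjusted p from 0.018 to 0.047 in these 5 settings). With the replicate number as a block it passed too (limma, adjusted p = 3.8e-06), where 2927 of all genes were higher. Without a library its log2 ratio ran from 0.28 to 0.64. The outcome of the main fit held in 6 of 15 alternatives. The others had log2 ratios from -0.11 to 0.41. The median of all genes was 0.20, and with equal medians 244 of all genes were higher and 669 lower in place of 1131 and 342, with 1 member higher, Tead4. Without Input replicate 1, Tead4 was again the member left, and Tead3 was also lost without Input replicate 2. No member passed with an equal pseudocount of 0.5 RPM, where no gene did.

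At the starts 0 of the 8 members tested were higher for Sox6 (limma, 2.22% of all 18850 genes were higher and 2967 had an unadjusted p under 0.05). Tead4 and Tead3 had unadjusted p of 0.0054 and 0.023 (limma), and 5 members passed with 2 reads added to each count and 5 without Sox6 replicate 1, settings in which 10428 and 7529 of the 18850 genes did. The Sox6 libraries held 4 reads each at the start of Tead4, 0 each at that of Vgll4, and 3 or fewer at the other starts.

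Pol II was also counted at the common Sox6 peaks, since Pol II reads had not chosen them. All 5 member peaks had more Pol II than input (limma), as did 57.4% of the 1060 common peaks tested, of which 1.42% were lower. The 5 lie in introns of genes with more Pol II than input over the body, so this count is not separate from that result. The share over all common peaks also covers peaks outside genes. Tead4 peak 2 held 16 and 36 Pol II reads, 10.4 and 13.0 RPM (log2 ratio 4.57 ± 0.44, SE, adjusted p = 5.2e-11), at percentile 97.1 of all common peaks. Tead4 peak 1 held 7.15 and 6.52 RPM (3.75 ± 0.45, SE), the Vgll4 peak 6.50 and 3.98 RPM (2.92 ± 0.45, SE), and the Tead1 peaks 1.95 and 3.26 RPM (3.16 ± 0.64, SE) and 3.90 and 2.90 RPM (2.47 ± 0.49, SE). With equal medians, 131 of all common peaks were higher and 77 lower in place of 608 and 15, and the 2 Tead4 peaks were higher among the 5. In both Pol II libraries each of the 5 peaks held more reads than the mean of its flanks 2 kb away, as did 66.4% of all common peaks. At Tead4 peak 2 the Pol II flanks held 5.52 and 3.98 RPM. Input was also above its own flanks in both libraries at the Vgll4 peak (0.592 and 0.784 RPM against 0.296 and 0.330) and at Tead1 peak 2 (0.637 and 0.619 RPM against 0.296 and 0.495), and not in both at the other 3 peaks.

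Genes upstream in the Hippo pathway, which control Yap1 and Wwtr1, mostly carried more Pol II than input. Of 22 kinases and regulators, 18 were higher for Pol II over the body and 2 lower, with a median log2 ratio of 1.17, beside 38.9% higher, 24.4% lower and a median of 0.17 over all genes. The largest were Ajuba (3.34 ± 0.17, SE), a LIM protein known to bind Lats kinases, Map4k4 (2.35 ± 0.07, SE) and Taok1 (2.01 ± 0.09, SE), kinases upstream of Lats. Fat4 (-1.22 ± 0.16, SE) and Dchs1 (-0.67 ± 0.19, SE), a pair of large cadherins that bind each other, were lower, and the call of Dchs1 was lost without either input. A common Sox6 peak lay in or within 20 kb of Taok1 and Limd1 (1.48 ± 0.11, SE), 2 of the 22, beside 4.33% of all genes. For Sox6 over the body 0 of the 22 were called (limma), beside 5.38% higher and 1.63% lower of all genes. An unadjusted p under 0.05 (limma) was found for 6 of the 22, near the share over all genes, 5848 of 21005.

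Of 10 genes known as targets of Yap and Taz, 6 were higher for Pol II and 2 lower, with a median log2 ratio of 0.62, beside the same shares of 38.9% and 24.4% over all genes. Amotl2 (4.04 ± 0.12, SE), Ankrd1 (3.29 ± 0.15, SE) and Cyr61 (2.82 ± 0.32, SE) had the largest ratios, with Pol II of 10.01 and 9.59 RPKM at Amotl2. F3 (-1.59 ± 0.38, SE) and Crim1 (-0.68 ± 0.10, SE) were lower, and the call of F3 was lost without either input. Amotl2 was also the 1 gene of the 10 with more Sox6 than input over the body (log2 ratio 1.33, limma, adjusted p = 0.014, beside 5.38% of all genes). None of the 10 had a common Sox6 peak in or within 20 kb.

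Of 5 muscle genes known for an MCAT element, 4 were higher for Pol II (38.9% of all genes), with a median log2 ratio of 4.55: Acta1 (6.62 ± 0.20, SE), Tnnt2 (4.77 ± 0.11, SE), Acta2 (4.55 ± 0.10, SE) and Myh7 (1.30 ± 0.19, SE). Myh6 was at 0.632 and 0.587 RPKM against 0.549 and 0.553 in the inputs (log2 ratio 0.17 ± 0.16, SE, limma, adjusted p = 0.41), and had more Sox6 than input over the body (log2 ratio 1.17, limma, adjusted p = 0.014), 1 of the 5 beside 5.38% of all genes. At the starts, 3 of the 5 had more Sox6 than input (2.22% of all genes): Myh7 (log2 ratio 3.44 ± 0.46, SE), Acta2 (2.01 ± 0.41, SE) and Tnnt2 (1.98 ± 0.55, SE), with adjusted p of 1.3e-10, 0.00037 and 0.025 (limma). The paper places a proximal Sox6 site inside this window at Myh7, so the Myh7 value describes reads on which a peak was called. Myh6 and Tnnt2 also had a common peak in or within 20 kb. Whether their Sox6 values include reads of such a peak was not tested. With equal medians, and with an equal pseudocount of 0.5 RPM, 0 of all genes were higher for Sox6 at starts. Acta1 was also among the 10 myotube markers. Of these, 5 had more Sox6 than input over the body and 2 at the start, beside 5.38% and 2.22% of all genes. A common Sox6 peak lay in or within 20 kb of 2 of the 10. Common Sox6 peaks lay in or within 20 kb of Tnnt2, Myh7 and Myh6, 3 of the 5, beside 4.33% of all genes. Myh6 and Myh7 are near-identical neighbours, so reads that map to both were left out by the unique alignment.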

How the data were processed

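ChIP and input DNA of mouse myotubes were sequenced as single-end reads in 6 libraries of 3 groups, taken from the labels. Per the study's methods, the libraries came from 2 independent experiments per antibody. The authors aligned reads with Bowtie 0.12.5 to NCBI Build 37 (mm9), kept unique alignments, called peaks with SISSRs against input and deposited read positions and peak lists. These hold coordinates, with no count or normalized column, beside an unnamed score of the Pol II peaks that was not used.

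Reads were counted by 5' end over the longest RefSeq-backed GENCODE model of each gene, within 500 bp of starts, and in 450 bp around peak centres. Features with at least 10 reads over the libraries compared were kept. limma 3.58.1 with a trend (R 4.3.3) was fitted to log2 RPM with 0.5 reads added, ChIP minus input, with Benjamini-Hochberg adjustment at 0.05 over all features. The 0.5 reads were added before scaling and are more RPM in the ChIP libraries than in the deeper inputs. Reads are not independent molecules, so binomial p-values cover counting error only. The 2 libraries per group, and the lowest depth of 1468604 reads, limit precision. Fits and binomial tests were run on simulated data. For the fits, changes were simulated only in features with at least 50 reads over the 2 inputs, so changes at starts with fewer reads were not covered.

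The 9 members, the gene lists and the rule for named genes (the members and their peaks, Actb, the control amplicon, and from each list the 3 largest Pol II ratios called higher, the 2 smallest and those with a common peak) were chosen with earlier results of these data known. Alternatives covered pseudocount, filter, scaling, weights, repeated positions, read position, windows, all 6 libraries in 1 fit, the replicate block and each library left out, and Tead3 without its last 1000 bp, chosen after seeing the data. Sequences were read from the mm9 genome.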

Additional observations from a re-analysis of the deposited data

How the results depend on the processing

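The 9 members stayed higher for Pol II over the gene body under every alternative run. Depth limited the starts, where most members held under 10 ChIP reads, and single peaks. Sox6 counts over bodies and starts moved widely with the settings, and the causes of the changes below were not tested.

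With 2 reads added, 15624 genes were higher for Pol II at starts (8839 in the report), 30801 starts (14841), 2502 genes for Sox6 over bodies (1131), 10428 for Sox6 at starts (418, with 5 members against 0) and 946 common peaks for Pol II (608). With an equal pseudocount of 0.5 RPM, 0 genes were higher for Sox6 over bodies and at starts, with 0 members over bodies (5213 and 3043 had an unadjusted p under 0.05, limma). With no filter, Sox6 counts were 2306 and 1479, with 1 member higher at starts. With at least 50 reads, Pol II counts were 2674 at starts (2 members), 4447 at all starts (8 member starts) and 133 at common peaks, Sox6 counts 39 at starts and 485 at common peaks, and 3 member peaks were tested and higher for each ChIP. With equal medians, Pol II counts were 3809 at starts (3 members), 8863 at all starts and 131 at common peaks (2 member peaks), and Sox6 counts 244 over bodies (1 member), 0 at starts (2405 unadjusted, limma) and 73 at common peaks (0 member peaks). With voom weights 72 genes were higher for Sox6 at starts. With windows of 250 bp and 1000 bp to each side, Sox6 counts at starts were 259 and 75, and 4 members were higher for Pol II at 250 bp. With the deposited interval alone, 902 replicate 1 peaks and 790 replicate 2 peaks were higher in the other replicate, with 2 member peaks of replicate 1. In the replicate 1 list, Tead1 peaks 1 and 2 and the Vgll4 common peak were then not called (exact binomial test, adjusted p = 0.22, 0.052 and 0.34). In the replicate 2 list, Tead1 peak 1 and the Wwtr1 peak lost their calls.

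Leaving out each library gave ranges of 171 to 7668 genes for Sox6 over bodies (1 to 6 members), 3 to 7529 for Sox6 at starts (0 to 5 members), 292 to 621 common peaks for Pol II and 4 to 7 members for Pol II at starts. The lone library of a group was then assumed to vary like the other group. Without Sox6 replicate 1 the Sox6 counts were highest, and without Input replicate 1 they were lowest.

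The labels number the libraries and state no pairing. Per the paper's methods, each ChIP experiment had its own input as background for peak calling, without saying which numbered input that was. With the replicate number as a block, 2927 genes were higher for Sox6 over bodies (1131 without it) and 8273 for Pol II over bodies (8181), and Vgll4 passed for Sox6 over the body (limma, adjusted p = 3.8e-06). Deviations of same-numbered libraries correlated at 0.069 (Sox6 and Input), -0.0066 (Pol II and Input) and 0.0059 (Sox6 and Pol II) over 17425 genes.

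Directions turned for the following values. At starts, Pol II of Vgll4 was -0.019 with the equal pseudocount, -1.13 with equal medians and -0.37 with the 1000 bp window, and that of Tead2 -0.45, -1.55 and, without a library, from -0.41 to 0.51. Sox6 over bodies was -0.14 (Wwtr1) and -0.092 (Yap1) with equal medians, and without a library it ranged from -0.16 to 0.98 (Vgll2), -0.23 to 0.0070 (Vgll3), -0.0045 to 0.16 (Wwtr1), -0.068 to 0.51 (Tead2) and -0.0075 to 0.25 (Yap1). Myh6 was -0.28 for Pol II with equal medians, and Tead4 peak 2 was -0.042 for Sox6, a value centred on the median of the common peaks.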
